A study of Mus musculus with 32 samples.

Results

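The 9 Hedgehog pathway genes described here were Shh, Ptch1, Smo, Gli1, Gli2, Gli3, Sufu, Gas1 and Boc, chosen by name as the core of the pathway and matched to 9 of the 48576 gene identifiers in the deposited RNA-seq tables. All 9 passed the filter on low values (1 FPKM or more when averaged within a comparison) in every comparison. RNA had been sequenced from forebrain (Fb) and midbrain (Mb) tissue of B6C3F1 mouse embryos at embryonic day 9.5, in 32 libraries, 16 from each tissue, and FPKM is the number of fragments per kilobase of transcript, scaled to the number of fragments mapped in the library. In each tissue there were 6 wild-type (WT) libraries, 4 libraries from triple knockouts of the type II cadherins Cdh6, Cdh8 and Cdh11 (TKO_Ex), 3 from double knockouts with exencephaly, an open cranial neural tube (DKO_Ex), and 3 from double knockouts with a cranial defect and no exencephaly (DKO_CD). The labels give DKO_Ex as knockouts of Cdh8 and Cdh11 and DKO_CD as knockouts of Cdh6 and Cdh8, whereas the methods of the study describe both as Cdh8 and Cdh11 knockouts. All mutants carried constitutive CRISPR/Cas9 deletions in the exon with the start codon of each targeted cadherin gene, in 1 mouse line, and came from matings of triple heterozygotes, while WT embryos came from matings of WT mice, so that line and genotype cannot be told apart. The labels do not say that each library was a separate embryo, and p-values measure the spread between these libraries.

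Hedgehog is a secreted signal that patterns the neural tube from its ventral side. Shh protein is made by the notochord, the floor plate and the ventral forebrain. It binds Ptch1 on receiving cells and so releases Smo from inhibition, and signalling through the primary cilium then turns the Gli transcription factors from repressors into activators. Gas1 and Boc, with their relative Cdon, are co-receptors that help Shh to bind, and Sufu restrains the Gli proteins in the cytoplasm. Gli1 and Ptch1 are themselves direct targets of the pathway and are widely used as its readouts, and in the mouse head Shh signalling is required for the ventral midline and for the growth of the forebrain and midbrain.

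Defining markers followed the labelled tissues except the midbrain marker Pax2, with means of 3.64 FPKM in Fb and 3.11 FPKM in Mb. Among the Mb libraries 1 stood apart. Six3, a homeobox gene of the anterior forebrain, lay between 33.1 and 56.9 FPKM (median 42.2) in the 16 Fb libraries and between 0 and 1.57 FPKM (median 0.229) in the 16 Mb libraries. En2, which marks midbrain and anterior hindbrain, lay between 8.35 and 74.7 FPKM (median 55.4) in Mb and between 0 and 0.520 FPKM in Fb. The lowest Mb library was WT Mb replicate 5, in which En1 was 3.57 FPKM. Among the targeted genes, Cdh6 was 0.388, 0.353, 3.10 and 0.345 FPKM in TKO_Ex Mb and 1.84, 0.766, 3.74 and 0.572 FPKM in TKO_Ex Fb, so that the libraries labelled TKO_Ex replicate 3 were within the WT ranges, which were 1.04 to 3.55 FPKM in Mb and 2.04 to 3.997 FPKM in Fb. In the DKO groups Cdh6 was 3.62, 3.72 and 4.34 FPKM in DKO_Ex Fb, 3.12, 2.47 and 1.86 FPKM in DKO_Ex Mb, 3.43, 1.72 and 2.78 FPKM in DKO_CD Fb and 1.76, 2.11 and 1.29 FPKM in DKO_CD Mb, so that both groups overlapped WT in Mb and neither was as low as the other TKO_Ex Mb libraries. Cdh8 in Mb was 4.93 ± 2.98 FPKM in WT, 1.49 ± 0.634 FPKM in TKO_Ex, 1.93 ± 0.487 FPKM in DKO_Ex and 1.24 ± 0.230 FPKM in DKO_CD (SD). Cdh11 in Mb was 21.9 ± 3.76, 15.9 ± 0.980, 18.2 ± 0.561 and 22.1 ± 5.29 FPKM in the same order. None of these 3 genes passed against WT in any mutant group (limma, adjusted p below 0.05, with 7 of 18 tests at an unadjusted p below it). Only part of 1 exon had been deleted in each gene, and a value over the whole gene is therefore a weak check of the labels. In the 12 DKO libraries the heading of the value column and the record under which it was deposited named opposite DKO groups. Groups were taken from the headings, and taking them from the records exchanges the 2 groups, so that each value given for DKO_Ex then belongs to DKO_CD and the reverse.

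The smallest steps between low FPKM values gave an estimated 1960000 to 3250000 fragments per library. The 4 TKO_Ex Mb libraries had 1960000 to 2335000 and the 3 DKO_Ex Mb libraries 3090000 to 3245000, and neither group overlapped the WT Mb libraries, which had 2395000 to 2955000 (exact two-sided permutation test, p = 0.00952 and p = 0.0238). At this depth the values of Shh rested on about 53 fragments in the library with the fewest and about 169 in that with the most.

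The 9 genes differed widely in level. Per kilobase, mean levels over the 32 libraries were 70.4 FPKM for Smo, which encodes the signal transducer, and 51.0 FPKM for Gas1. Sufu, Ptch1 and Gli3 followed at 22.3, 21.6 and 21.3 FPKM, then Gli1 at 13.9, Shh at 13.7, Gli2 at 11.1 and Boc at 7.94 FPKM. Smo was above Gas1 in 30 of 32 libraries and Gas1 was above Sufu in all 32. Neighbours within the middle group changed places from library to library, since Sufu was above Ptch1 in 18 libraries and Ptch1 above Gli3 in 19. Gli3 was above Gli1 in 30 libraries. Gli1 and Shh were not separable, with Gli1 the higher of the pair in 17 of 32. Gli2 was above Boc in all 16 Fb libraries but in only 5 of 16 Mb libraries.

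**Figure D1:**
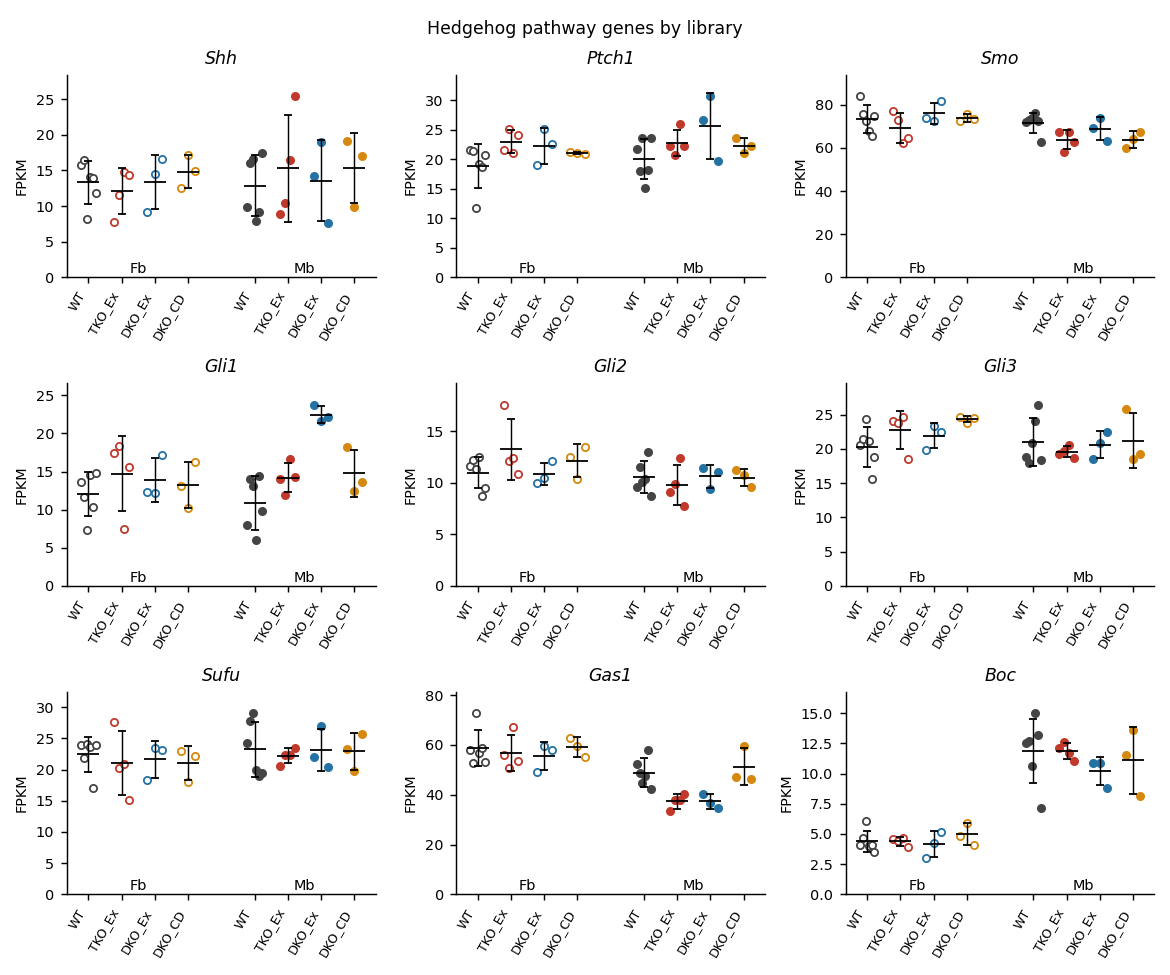
FPKM of each of the 9 Hedgehog pathway genes in every library, by genotype group (open circles, forebrain Fb; filled circles, midbrain Mb); horizontal bars are group means and error bars SD. Boc is higher in all Mb libraries, Gas1 is lower in Mb over all groups, and the Gas1 values of TKO_Ex and DKO_Ex Mb and the Gli1 values of DKO_Ex Mb lie outside the WT Mb range without passing the test against WT, while Shh spreads widely, from 7.60 to 25.4 FPKM over the 32 libraries.

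The spread over all libraries also differed by gene. The coefficient of variation over the 32 libraries was 48.5% for Boc, 30.1% for Shh and for Gli1, 19.0% for Gas1, 16.6% for Gli2, 15.9% for Ptch1, 14.3% for Sufu, 12.9% for Gli3 and 8.78% for Smo. The spread of Boc lay between tissues. That of Shh lay within groups, and in 4 of them its highest value was more than 2 times its lowest.

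Boc, encoding an immunoglobulin-superfamily co-receptor for Shh (ENSMUSG00000022687, minus strand, GRCm38 chr16:44485049-44558897), was the member with the largest difference between tissues. In WT Fb its values were 3.52, 4.08 and 6.04 FPKM (lowest, median and highest of 6), and in WT Mb they were 7.19, 12.6 and 15.0 FPKM. The 4 TKO_Ex libraries had 4.56, 4.43, 4.69 and 3.89 FPKM in Fb and 12.2, 12.6, 11.7 and 11.01 FPKM in Mb. DKO_Ex libraries had 3.03, 4.29 and 5.19 FPKM in Fb and 10.9, 10.9 and 8.84 FPKM in Mb. In DKO_CD the values were 4.84, 5.93 and 4.13 FPKM in Fb and 11.6, 13.6 and 8.16 FPKM in Mb. Every Mb library lay above every Fb library, in all 4 genotype groups and over the 16 against 16 libraries. Of all tested genes 5.59% showed no overlap in either direction in WT, 8.94% in TKO_Ex, 20.5% in DKO_Ex, 15.6% in DKO_CD and 1.53% over all groups. WT means were 4.39 ± 0.886 FPKM in Fb and 11.9 ± 2.69 FPKM in Mb (SD, n = 6 each). On the log2(FPKM + 1) scale, on which all differences were tested with limma and Benjamini-Hochberg adjustment over all genes tested, Mb exceeded Fb by 1.24 (SE 0.16, adjusted p = 0.000205) in WT, by 1.26 (SE 0.12, adjusted p = 0.000747) in TKO_Ex and by 1.13 (SE 0.20, adjusted p = 0.0369) in DKO_Ex. In DKO_CD the difference was 1.005 (SE 0.23, adjusted p = 0.162) and did not pass. Over all groups, as the mean of the differences within the 4 genotype groups in one fit, it was 1.16 (SE 0.09, adjusted p = 7.06e-11). The tissue difference of a mutant group, less that of WT, was 0.02 in TKO_Ex, -0.11 in DKO_Ex and -0.23 in DKO_CD and did not pass in any of them (limma adjusted p from 0.99 to 1). Leaving out any of 5 of the 6 DKO_Ex libraries (all but Fb replicate 3) ended the call of Boc in that group, with adjusted p between 0.0838 and 0.149. With replicate numbers as a block in the fit, Boc in DKO_Ex did not pass either. With the DKO groups taken from the records, Boc passed in DKO_CD (adjusted p = 0.0369) and not in DKO_Ex (adjusted p = 0.162).

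Gas1, which encodes a GPI-anchored Shh co-receptor, moved the other way (ENSMUSG00000052957, minus strand, GRCm38 chr13:60174405-60177365). Of the 9 members 6 had a RefSeq promoter window, and that of Gas1 is shown because it is the member whose level differed between tissues for which a window was given. The RefSeq start of Gas1 lies upstream of the gene range above, which is from GENCODE. The 250 bases before its start (RefSeq, GRCm38.p6, minus strand, chr13:60177536-60177785) were, 5′ to 3′:
Gas1: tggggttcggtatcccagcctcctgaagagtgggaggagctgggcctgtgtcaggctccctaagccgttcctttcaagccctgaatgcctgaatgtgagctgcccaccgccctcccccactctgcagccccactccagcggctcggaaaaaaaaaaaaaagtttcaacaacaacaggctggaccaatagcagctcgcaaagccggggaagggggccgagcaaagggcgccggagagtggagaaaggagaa
No base is in capitals because the Gli-binding sequence GACCACCCA, searched on both strands, was absent from this window. The 9 letters were found in 0 of the 6 member windows of 300 bases and in 83 of 32851 promoter windows (0.253%), and no match says only that these letters are not there.

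In Fb, Gas1 was 52.9, 57.4 and 72.7 FPKM in WT (lowest, median and highest of 6), 55.8, 50.9, 67.2 and 53.4 FPKM in TKO_Ex, 49.2, 59.6 and 57.8 FPKM in DKO_Ex and 62.8, 59.7 and 55.1 FPKM in DKO_CD. In Mb it was 42.1, 48.0 and 58.1 FPKM in WT, 33.3, 38.0, 38.0 and 40.3 FPKM in TKO_Ex, 40.5, 36.9 and 34.5 FPKM in DKO_Ex and 47.3, 59.8 and 46.5 FPKM in DKO_CD. The tissues overlapped in WT and in DKO_CD and were fully apart in TKO_Ex and DKO_Ex, and 13 of the 16 Mb libraries lay below every Fb library. Gas1 was lower in Mb by 0.40 on the log2 scale over all groups (log2 difference -0.40, SE 0.06, limma adjusted p = 3.71e-06). Within groups the difference passed in TKO_Ex alone (-0.59, SE 0.11, adjusted p = 0.0264), and it was -0.26 (adjusted p = 0.129) in WT, -0.56 (adjusted p = 0.0687) in DKO_Ex and -0.21 (adjusted p = 0.671) in DKO_CD, and by the records the values of DKO_Ex and DKO_CD change places. Without both libraries labelled TKO_Ex replicate 3 the TKO_Ex difference was -0.51 (adjusted p = 0.133), and leaving out any of 6 of the 8 TKO_Ex libraries gave adjusted p between 0.0506 and 0.0748. With replicate numbers as a block in the fit, Gas1 in TKO_Ex did not pass either.

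Markers of other cell types moved with the tissue as well. Over all groups 6.77% of all tested genes passed as lower in Mb and 8.38% as higher. Of 7 tested head mesenchyme markers 5 were lower and 1, Col1a1, was higher in Mb over all groups, and their summed level was 180 ± 13.6 FPKM in WT Fb and 93.1 ± 21.8 FPKM in WT Mb (SD, n = 6 each). Their most abundant gene, the transcription factor Twist1, was 31.4 to 88.4 FPKM in Fb (median 64.1) and 29.0 to 73.7 FPKM in Mb (median 38.6), and none of the 7 was at 0 in any library. All 5 tested surface ectoderm markers were lower in Mb, with sums of 76.3 ± 14.1 FPKM in WT Fb and 29.8 ± 6.36 FPKM in WT Mb, and Krt18 was the most abundant. Grhl3, a sixth such marker that was below the filter, was at 0 in 4 Mb libraries and Grhl2 in 1. Foregut endoderm markers were lower in 2 of 3 (Cldn6 and Epcam, the latter also a surface ectoderm marker), endothelial markers in 1 of 4 (Pecam1), and none of 4 red cell markers differed past the threshold. All 5 forebrain markers were lower in Mb and 5 of 6 midbrain markers higher, with Pax2 slightly lower in Mb and not passing. The part of these tissues in the level of Gas1 or Boc was not tested, and in bulk tissue fewer cells of a type and less RNA per cell cannot be told apart.

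**Figure D2:**
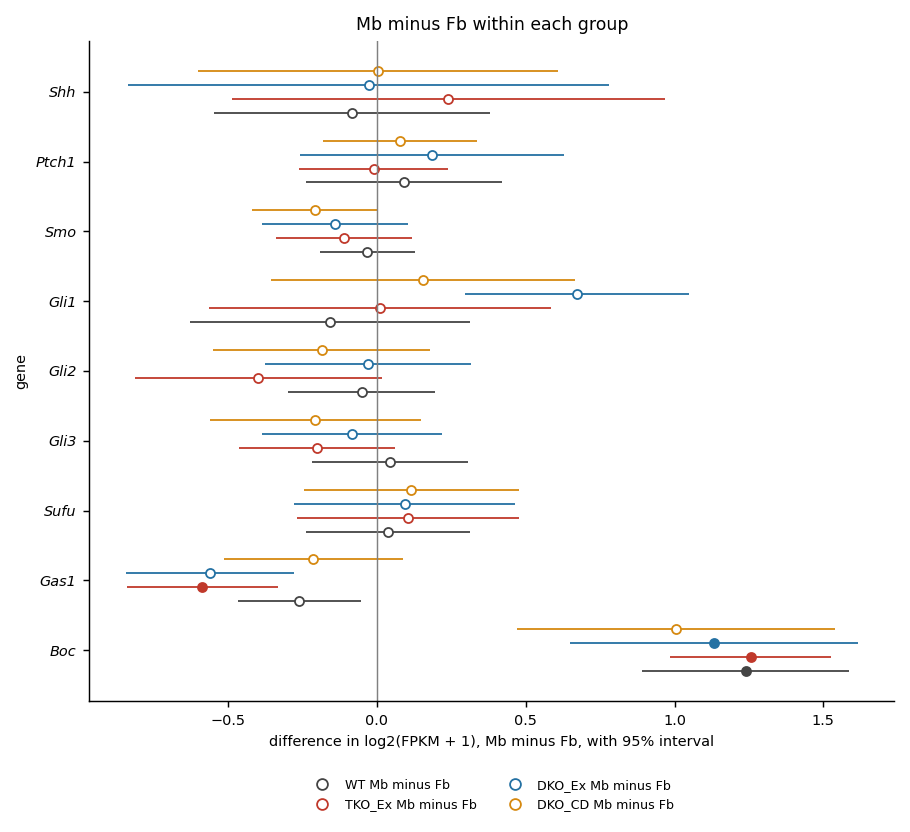
Difference in log2(FPKM + 1) between Mb and Fb for each Hedgehog pathway gene in WT, TKO_Ex, DKO_Ex and DKO_CD, with 95% intervals; filled symbols have an adjusted p under 0.05. Boc lies between 1.005 and 1.26 in the 4 groups and Gas1 between -0.59 and -0.21, and the intervals of the other members include 0 except that of Gli1 in DKO_Ex (0.30 to 1.05).

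Counted over the 9 members, 1 passed in WT (Boc), where 8.26% of all tested genes passed in either direction. In TKO_Ex 2 of 9 passed (Boc and Gas1, against 2.89% of tested genes), in DKO_Ex 1 of 9 (Boc, against 2.58%), in DKO_CD 0 of 9 (against 0.507%) and over all groups 2 of 9 (against 15.1%). In DKO_CD, where limma called none of the members, 1 of them, Boc, had an unadjusted p below 0.05, against 10.1% of tested genes. With groups taken from the records these counts were 0 in DKO_Ex and 1 in DKO_CD. With replicate numbers as a block in the fit the counts were 1 in TKO_Ex (Boc) and 0 in DKO_Ex. With so few members the shares say little about the pathway as a whole.

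The other 7 members did not pass over all groups. Smo was 0.12 lower in Mb (SE 0.04, adjusted p = 0.051), and in DKO_CD its values were 72.4, 76.0 and 73.6 FPKM in Fb and 59.96, 64.3 and 67.6 FPKM in Mb, without overlap (log2 difference -0.21, adjusted p = 0.501). So few libraries often separate by tissue, since 15.6% of tested genes did not overlap in that comparison. Gli2, the main activator among the Gli factors, differed by -0.17 (SE 0.07, adjusted p = 0.152), and Gli3, the main repressor, by -0.11 (SE 0.07, adjusted p = 0.316). The log2 differences of Sufu, of the receptor and target Ptch1 and of the ligand Shh were 0.09 (adjusted p = 0.557), 0.09 (adjusted p = 0.569) and 0.03 (adjusted p = 0.933). For Shh the 95% interval ran from -0.30 to 0.36, which leaves room for differences of that size in either direction. Gli1 differed by 0.17 over all groups (adjusted p = 0.458) and by 0.67 in DKO_Ex (SE 0.16, adjusted p = 0.0951), where the 3 Mb libraries at 23.8, 21.6 and 22.1 FPKM lay above the 3 Fb libraries at 12.3, 12.2 and 17.2 FPKM. By the records these libraries are DKO_CD. Of tested genes 20.5% did not overlap between tissues in DKO_Ex.

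The rest of the pathway was followed in lists of genes that carry out successive steps, by the Mb minus Fb difference over all groups. The median difference of the 13441 genes tested was 0.000675 on the log2 scale, and 8.38% of them passed as higher and 6.77% as lower in Mb. Among genes that modify or release the ligand, 0 rose and 2 of 5 tested fell in Mb, both encoding secreted Scube proteins that help free lipid-modified Shh from the cell surface: Scube1 (-0.63, adjusted p = 8.28e-05) and Scube3 (-0.52, adjusted p = 0.00051). The list median was -0.06. Of the other receptor genes Lrp2, an endocytic receptor of the ventral forebrain, was lower (-0.32, adjusted p = 0.0181), whereas the other tested gene, Cdon, did not pass at 0.12. None of 11 genes of intracellular transduction, such as Kif7, Gpr161 and the protein kinase A subunits, and none of 8 genes of cilium assembly and transport passed over all groups. In WT alone 1 cilium gene, Tulp3, which carries receptors into the cilium, was lower in Mb (-0.45, adjusted p = 0.0144).

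Genes that Shh switches on in the ventral neural tube differed strongly, in both directions. Of 13 tested, 8 were higher in Mb and 2 were lower over all groups, and the list median was 0.98. The homeobox gene Nkx6-2 was 0.441, 1.90 and 8.08 FPKM (lowest, median and highest of 16) in Fb and 20.0, 33.5 and 45.3 FPKM in Mb (log2 difference 3.58, adjusted p = 2.82e-15). Its relative Nkx6-1 was higher by 2.23 (adjusted p = 1.07e-11). The floor plate regulator Foxa2 was 2.31, 4.92 and 9.32 FPKM in Fb and 7.48, 12.1 and 18.2 FPKM in Mb (1.14, adjusted p = 7.49e-07). Ntn1, encoding the axon guidance cue netrin 1, was 8.50, 18.4 and 33.0 FPKM in Fb and 39.7, 51.4 and 72.2 FPKM in Mb (1.54, adjusted p = 1.43e-10). Nkx6-2 and Ntn1 did not overlap between tissues and Foxa2 did. The others that were higher were Ferd3l (1.70), Nkx2-9 (1.16), Foxa1 (0.98) and the floor plate gene Spon1 (0.73).

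The 2 that were lower in Mb were regulators of ventral forebrain and progenitor identity. Nkx2-1, which specifies the hypothalamus and ventral telencephalon, was 7.93, 22.4 and 31.0 FPKM in Fb and at most 6.25 FPKM in Mb, where it was listed at 0 in 9 of 16 libraries (log2 difference -3.93, adjusted p = 3.6e-13). Olig2 was 6.86, 14.3 and 23.3 FPKM in Fb and 0, 0.750 and 9.09 FPKM in Mb (-2.79, adjusted p = 2.6e-10). The highest Mb values of both came from DKO_Ex Mb replicate 2. Sim2 (-0.55, adjusted p = 0.0868), Nkx2-2 (-0.39, adjusted p = 0.3) and Lmx1a (-0.14, adjusted p = 0.58) did not pass. All 6 dorsal genes, which Shh signalling holds back from the ventral side, were higher in Mb, with a list median of 0.82. Gdf7, a roof plate signal, differed by 1.40, Pax3 by 1.05, Msx1 by 0.94, Pax7 by 0.69, Msx2 by 0.60 and Zic1 by 0.33.

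**Figure D3:**
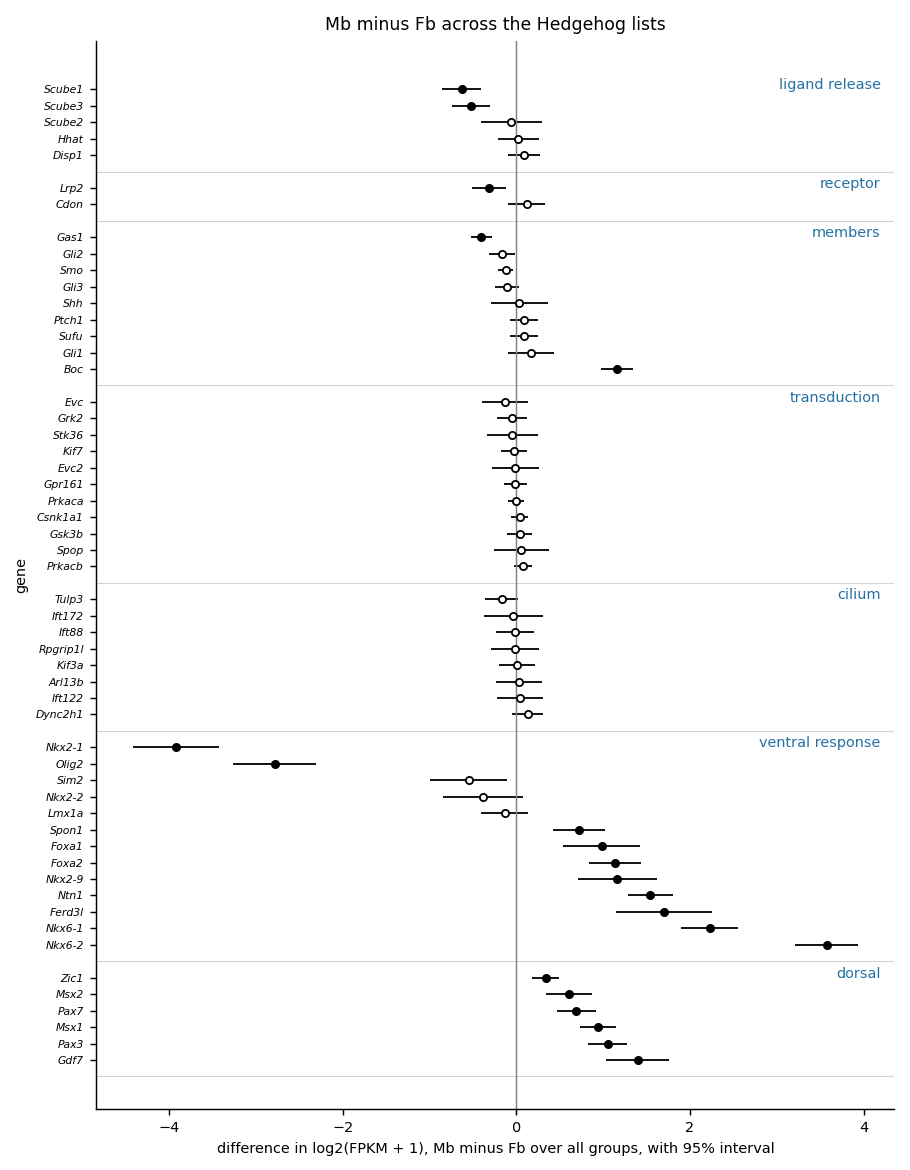
Difference in log2(FPKM + 1) between Mb and Fb over all groups, with 95% intervals, for genes of ligand release, other receptors, the 9 members, intracellular transduction, the cilium, the ventral response and dorsal identity; filled symbols have an adjusted p under 0.05. Transduction and cilium genes lie near 0, ventral response genes reach from -3.93 (Nkx2-1) to 3.58 (Nkx6-2), and all 6 dorsal genes lie above 0.

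The knockout comparisons asked whether loss of the cadherins changed these genes in either tissue. No member passed in any of the 6 comparisons of a mutant group with WT of the same tissue (limma, adjusted p below 0.05), where 0.0898% of tested genes passed in TKO_Ex Mb, 0.0903% in DKO_Ex Mb, 0.0375% in DKO_CD Mb, 0.0603% in TKO_Ex Fb, 0.0759% in DKO_Ex Fb and 0.0378% in DKO_CD Fb. Of the 54 tests 3 had an unadjusted p below 0.05 (5.56%), and all 3 were in Mb, for Gas1 in TKO_Ex, Gas1 in DKO_Ex and Gli1 in DKO_Ex. Of all tested genes 8.38%, 5.46% and 6.69% had such a p in the Mb of TKO_Ex, DKO_Ex and DKO_CD, and 8.66%, 7.01% and 8.44% in their Fb. The 6 comparisons share 2 sets of WT libraries and are not independent of each other.

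Gas1 was the member lowest relative to WT, in the Mb of both groups with exencephaly. Its mean was 48.9 ± 5.72 FPKM in WT Mb (SD, n = 6), 37.4 ± 2.94 FPKM in TKO_Ex Mb (n = 4), 37.3 ± 3.01 FPKM in DKO_Ex Mb (n = 3) and 51.2 ± 7.45 FPKM in DKO_CD Mb (n = 3). All 4 TKO_Ex and all 3 DKO_Ex libraries lay below the lowest WT library at 42.1 FPKM, and the same held for 0.524% and 0.993% of tested genes. Differences from WT were -0.37 in TKO_Ex (SE 0.10, unadjusted p = 0.0037, limma adjusted p = 0.299), -0.38 in DKO_Ex (SE 0.11, unadjusted p = 0.00762, adjusted p = 0.694) and 0.06 in DKO_CD (adjusted p = 0.954), and none passed. In Fb they were -0.05, -0.08 and 0.02. Fragment numbers differed from WT Mb in opposite directions in the 2 groups, being lower in TKO_Ex and higher in DKO_Ex. Over the 32 libraries the deviations of Gas1 from its group means were set against those of log2 fragment number. Their correlation was -0.29 (rho = -0.34, and r = -0.39 in Fb and -0.13 in Mb), which leaves out depth differences between groups. The part of depth was not tested. The summed head mesenchyme markers were 93.1 ± 21.8 FPKM in WT Mb, 95.7 ± 11.9 FPKM in TKO_Ex Mb, 108 ± 14.4 FPKM in DKO_Ex Mb and 141 ± 37.1 FPKM in DKO_CD Mb, and the summed midbrain markers were 132 ± 61.7, 168 ± 23.4, 170 ± 13.2 and 129 ± 47.7 FPKM in the same order, with 6 of 6 above WT in TKO_Ex and in DKO_Ex and none called. The summed dorsal genes were 137 ± 19.3, 122 ± 13.8, 120 ± 3.82 and 168 ± 20.5 FPKM in that order, with 5 of 6 below WT in TKO_Ex and in DKO_Ex, 5 of 6 above it in DKO_CD and none called. The part of these lists in the level of Gas1 was not tested. WT Mb replicate 5, which had the lowest En1 and En2, had the highest Gas1 of the WT Mb libraries, and without it the differences of Gas1 were -0.32 in TKO_Ex (adjusted p = 0.453) and -0.33 in DKO_Ex (adjusted p = 0.815). Taking groups from the records gave 0.06 for DKO_Ex and -0.38 for DKO_CD.

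Gli1, the transcriptional readout of the pathway (ENSMUSG00000025407, minus strand, GRCm38 chr10:127329882-127341974), was highest in DKO_Ex Mb. The 6 WT Mb libraries had 5.96 to 14.5 FPKM (median 11.5), and DKO_Ex Mb had 23.8, 21.6 and 22.1 FPKM, with means of 10.9 ± 3.52 and 22.5 ± 1.14 FPKM (SD). TKO_Ex Mb had 14.0, 11.9, 16.6 and 14.2 FPKM and DKO_CD Mb had 18.3, 12.4 and 13.6 FPKM. The 3 DKO_Ex libraries lay above every other library from Mb, while the other 2 mutant groups overlapped WT. Of tested genes 2.01% were above all WT libraries in DKO_Ex Mb. The difference from WT was 1.04 in DKO_Ex (SE 0.25, 95% interval 0.49 to 1.59, unadjusted p = 0.00173, limma adjusted p = 0.451) and did not pass. It was 0.40 in TKO_Ex (adjusted p = 0.681) and 0.45 in DKO_CD (adjusted p = 0.83). The DKO_Ex Mb libraries were also the most deeply sequenced of the Mb libraries. Over all 32 libraries the deviations of Gli1 from its group means had a Pearson correlation of 0.36 with those of log2 fragment number. This correlation leaves out depth differences between groups, and the part of depth in the difference from WT was not tested. The summed red cell markers, of which Hbb-y was the most abundant, were 13234 ± 6723 FPKM in WT Mb and 7155 ± 1600 FPKM in DKO_Ex Mb, and their part was not tested either. By the records the value of 1.04 belongs to DKO_CD and that of 0.45 to DKO_Ex.

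Ptch1, the other direct target, did not separate from WT. Its WT Mb libraries had 15.1 to 23.5 FPKM and DKO_Ex Mb had 26.7, 30.7 and 19.7 FPKM, with 1 of 3 within the WT range (log2 difference 0.34, SE 0.18, adjusted p = 0.904). Over the 6 comparisons the differences of Ptch1 from WT ran from 0.16 in DKO_CD Mb to 0.34 in DKO_Ex Mb, with limma adjusted p of 0.643 or more. Shh itself (ENSMUSG00000002633, minus strand, GRCm38 chr5:28456815-28467256) had 9.91, 16.04, 16.6, 7.86, 9.20 and 17.5 FPKM in WT Mb, 8.88, 10.4, 16.4 and 25.4 FPKM in TKO_Ex Mb, 14.2, 19.0 and 7.60 FPKM in DKO_Ex Mb and 19.2, 9.81 and 17.0 FPKM in DKO_CD Mb. All groups overlapped. The 95% interval of its log2 difference from WT ran from -0.49 to 0.85 in TKO_Ex Mb and from -0.65 to 0.75 in DKO_Ex Mb. Room is left for Shh differences of these sizes, and the intervals are not limits of detection. Gli1 in DKO_Ex Mb, at a difference of 1.04, did not pass either. In Fb the differences of Gli1 from WT were 0.23 in TKO_Ex, 0.21 in DKO_Ex and 0.13 in DKO_CD. Those of Shh were -0.14, -0.004 and 0.16 in the same order, and none passed. The remaining members, Smo, Gli2, Gli3, Sufu and Boc, differed from WT by -0.17 to 0.26 in the 6 comparisons, with adjusted p of 0.614 or more.

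The mutant effect in Mb was also set against that in Fb by the interaction of genotype and tissue. No member passed in any of the 3 mutant groups, where 0.0149% of tested genes passed in TKO_Ex, 0% in DKO_Ex and 0.00746% in DKO_CD. Gas1 had an interaction of -0.33 in TKO_Ex (unadjusted p = 0.0385, limma adjusted p = 0.756) and -0.30 in DKO_Ex (adjusted p = 1), and Gli1 had 0.83 in DKO_Ex (unadjusted p = 0.0265, adjusted p = 1). In DKO_Ex, where 0 genes passed in all, 518 of 13349 (3.88%) had an unadjusted p below 0.05. No difference between the tissues in the effect of the knockouts was therefore called.

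**Figure D4:**
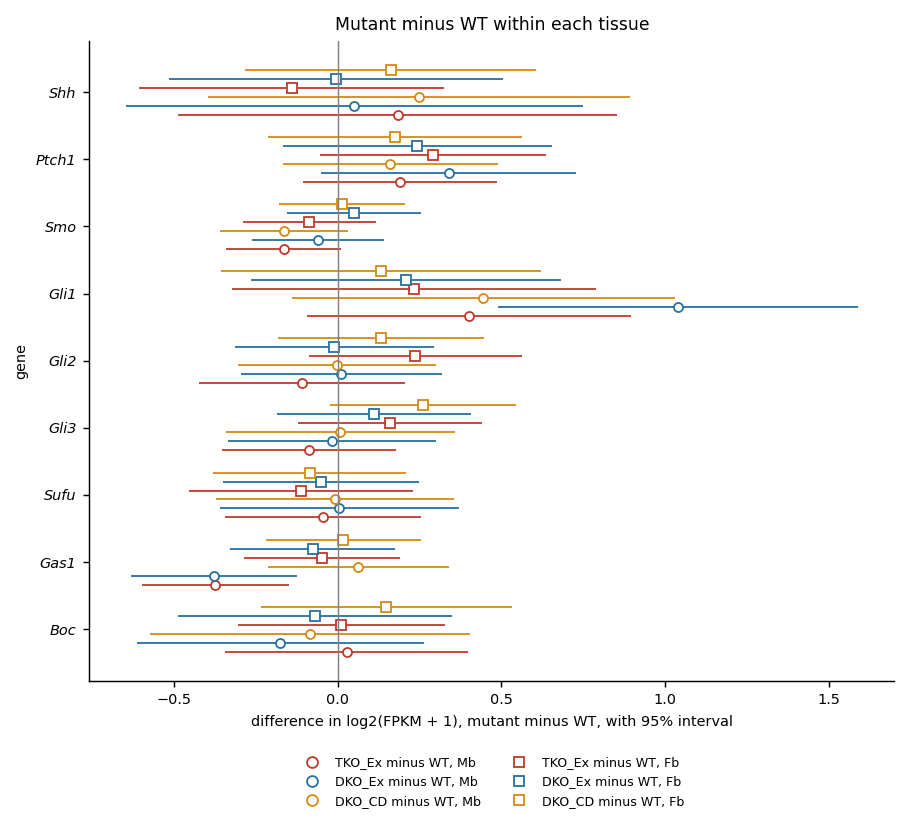
Difference in log2(FPKM + 1) between each mutant group and WT of the same tissue for the 9 Hedgehog pathway genes, with 95% intervals (circles, Mb; squares, Fb). No symbol is filled because no adjusted p was under 0.05; Gli1 in DKO_Ex Mb (1.04) and Gas1 in TKO_Ex and DKO_Ex Mb (-0.37 and -0.38) lie farthest from 0 relative to their intervals.

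No gene of the lists around the pathway passed in the 6 mutant comparisons (limma, adjusted p below 0.05). In the ligand release list 0 of 30 tests passed and 3 had an unadjusted p below 0.05. The counts were 0 of 12 and 1 for the other receptors, 0 of 66 and 4 for transduction, 0 of 48 and 2 for the cilium, 0 of 70 and 9 for the ventral response, and 0 of 33 and 2 for the dorsal genes. The 9 of the ventral response are 12.9% of its tests, the 3 of ligand release 10% and the 1 of the receptors 8.33%, whereas between 5.46% and 8.66% of all tested genes had such a p in the 6 comparisons. Nkx6-2 differed by 0.63 in DKO_Ex Mb (unadjusted p = 0.00497, limma adjusted p = 0.61) and Foxa2 by 0.69 in TKO_Ex Fb (unadjusted p = 0.0163, adjusted p = 0.454). Foxa2 is also expressed in endoderm, and in TKO_Ex Fb the summed foregut endoderm markers were 87.5 ± 38.9 FPKM against 55.2 ± 15.3 FPKM in WT Fb and the summed surface ectoderm markers 142 ± 65.6 FPKM against 76.3 ± 14.1 FPKM. Of these markers 2 of 3 and 6 of 6 were above WT and 3 of 3 and 4 of 6 had an unadjusted p below 0.05, with none called. Their part in the level of Foxa2 was not tested.

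The libraries of a group differed widely in Shh, and other genes varied with it. After the mean of each group had been subtracted on the log2 scale, the 13440 other genes were ordered by their Pearson correlation with Shh over the 32 libraries. The first was Spon1 (r = 0.76, Spearman's rho = 0.78), which encodes the floor plate protein F-spondin, and the second was Ptch1 (r = 0.65, rho = 0.61). They were followed by Ica1 (r = 0.64), the forkhead gene Foxf2 (r = 0.64) and Grm2 (r = 0.63). Spon1 kept r = 0.72 and Ptch1 r = 0.57 without the 2 libraries farthest from the median of Shh, WT Fb replicate 3 and DKO_Ex Mb replicate 3. Within Fb the correlations with Shh were 0.61 for Spon1 and 0.67 for Ptch1, and within Mb they were 0.84 and 0.66 (16 libraries each). The floor plate regulator Foxa2 had r = 0.56. Of the other genes of the ventral list Sim2 had r = 0.56, Foxa1 0.52 and Nkx2-1 0.50, and the rest lay between 0.42 (Olig2) and 0.09 (Nkx6-2). These correlations are a description over libraries whose dissection and depth also vary. For log2 fragment number, with its group means also subtracted, the correlation with Shh was -0.13 over the 32 libraries, -0.45 in Fb and 0.22 in Mb.

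**Figure D5:**
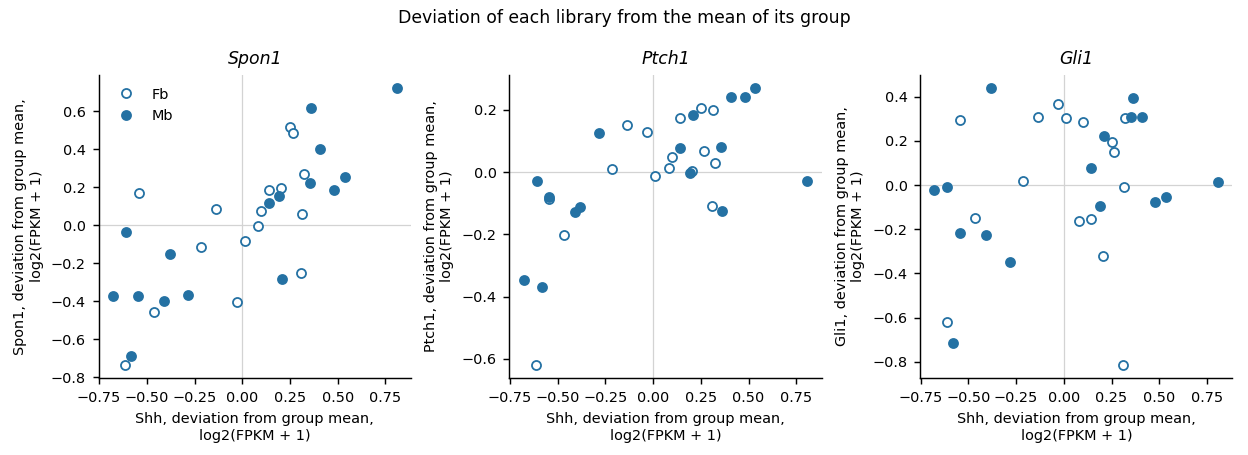
Deviation of Spon1, Ptch1 and Gli1 from their group means against that of Shh, on the log2(FPKM + 1) scale, in the 32 libraries (open circles, Fb; filled circles, Mb). Spon1 (r = 0.76) and Ptch1 (r = 0.65) vary with Shh, and Gli1 (r = 0.26) is more scattered.

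Gli1 varied less closely with the ligand. Its deviations had r = 0.26 with those of Shh (rho = 0.29, and 0.18 without the 2 farthest libraries), with 0.06 in Fb and 0.43 in Mb. With Ptch1 the correlation of Gli1 was 0.47 (rho = 0.30), which placed Ptch1 at rank 397 of 13440 genes by likeness to Gli1. As measured, without subtracting group means, the correlation was 0.61 and the rank of Ptch1 was 10. The genes with the closest pattern to Gli1 as measured over the 32 libraries were Cep192 (r = 0.74), Atxn2l (r = 0.73), Stx16 (r = 0.68), Sars2 (r = 0.66) and Bora (r = 0.63). Among the genes most like Shh as measured were Foxf2 (r = 0.59), Gm26894 (r = 0.56), Rbm24 (r = 0.54) and Tmub2 (r = 0.54).

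Among 4 markers of notochord and prechordal tissue, T, the notochord transcription factor, was listed at 0 in 11 Fb and 9 Mb libraries, and Noto was listed at 0 in 15 Fb and 16 Mb libraries. Gsc, a marker of the anterior midline mesoderm, had a median of 0.893 FPKM in Fb and 0 FPKM in Mb. Foxj1, a regulator of motile cilia that the floor plate also expresses, was at 0 in no library, had medians of 0.893 FPKM in Fb and 3.13 FPKM in Mb, and was higher in Mb over all groups (0.97, limma adjusted p = 0.000118). Shh was at least 7.60 FPKM in every library.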

How the data were processed

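RNA from Fb and Mb tissue was sequenced as directional libraries on Illumina HiSeq instruments. Per the methods of the study, the authors aligned reads with TopHat2 to the mouse genome (GRCm38/mm10) and computed the deposited FPKM values per gene with Cufflinks (versions not given in the sources used here). The authors' gene counts (HTSeq) and DESeq2 comparisons were not used here. From the FPKM values, 65 repeated identifiers were summed and differences in log2(FPKM + 1) were tested with limma 3.58.1 (R 4.3.3) with an intensity trend, over genes averaging 1 FPKM or more within a comparison and with Benjamini-Hochberg adjustment over all of them. A pseudocount of 1 understates changes of low genes. Only the groups compared entered each of the 14 fits. Gene positions came from GENCODE. An adjusted p below 0.05 was called. Fragment numbers were estimated from the steps between low FPKM values of 769 long genes, of which 77.2% to 84.9% were whole multiples within 0.1, and fragment numbers bound counting error only. Correlations and permutation tests used SciPy 1.17.1 (Python 3.11.15).

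The 9 members were fixed by name. Other genes were named from lists of pathway, dorsal, ventral and cell type genes, and as the 5 genes most like Shh or Gli1. The members and lists were chosen with earlier results of these data known. Some listed genes are not reported here. Scripts were tested on simulated data. Alternatives covered the pseudocount, filter, scaling, Xist as a covariate, all groups in one fit, the replicate block, DKO groups by record and leaving out each library.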

Additional observations from a re-analysis of the deposited data

Results flagged for a closer look

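In 5 of the 36 groups of 4 to 6 libraries tested over the 9 members, 1 library stood far from the rest (Dixon's test), where chance flags about 1 in 20 groups. Ptch1 was 11.7 FPKM in WT Fb replicate 3, against 18.7 FPKM in the next library. In the same library Gas1 was 72.7 FPKM, against 58.7 FPKM in the next. Sufu was 17.1 FPKM in WT Fb replicate 5, against 21.9 FPKM. Smo was 62.6 FPKM in WT Mb replicate 6, against 72.3 FPKM. Gli3 was 18.5 FPKM in TKO_Ex Fb replicate 4, against 23.8 FPKM.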

How the results depend on the processing

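Of 2943 values recomputed for the 9 members under alternatives, 0 reversed a called difference, 2908 kept their side of the threshold, 17 lost a call and 18 gained one. The count of members called between tissues was 1 in WT under every alternative. In TKO_Ex it was 2, and 1 with the replicate block or without replicate 3 of both tissues (range without 1 library 1 to 2). In DKO_Ex it was 1, but 0 with no filter, with the replicate block, with Xist as a covariate or with groups by record, and 2 with median-of-ratios scaling or all 8 groups in one fit (0 to 2 without 1 library). In DKO_CD it was 0, but 1 with all 8 groups in one fit or by record (0 to 0 without 1 library). Over all groups it was 2, and 3, with Smo added, with a pseudocount of 0.1 or 5, with median-of-ratios scaling or without replicate 3 of TKO_Ex in both tissues (2 to 3 without 1 library). It was 0 in the 6 mutant comparisons and the 3 interactions under every alternative run.

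Boc in DKO_Ex lost its call without any of 5 of the 6 libraries (Fb replicates 1 and 2, Mb replicates 1 to 3; limma adjusted p from 0.0838 to 0.149), and Gli1 in DKO_Ex gained one without Fb replicate 3 (0.82, adjusted p = 0.0454). Gas1 in TKO_Ex lost its call without Fb replicate 1 or 3 or any Mb library. The causes were not tested. Without WT Mb replicate 5, Boc in WT was 1.21 (adjusted p = 0.000731) and Gli1 in DKO_Ex Mb 1.13 (adjusted p = 0.364).

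Same-numbered Fb and Mb libraries of a group correlated by 0.0076 to 0.14 in their deviations (16 pairs, median 0.079). For libraries of a group with different numbers the median was -0.025, and 14 of 16 Fb libraries correlated best with their own number. The main fits did not take the numbers as pairs. With the replicate block neither Boc in DKO_Ex (limma adjusted p = 0.101) nor Gas1 in TKO_Ex (0.072) passed. At 1960000 to 3250000 fragments a library, low genes such as Boc rested on as few as 41 fragments in WT Fb.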
